A study of Mus musculus with 18 samples.

Results

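Expression of 9 transcription factors of innate lymphoid development, *Id2*, *Tox*, *Tox2*, *Gata3*, *Rora*, *Nfil3*, *Lef1*, *Bach2* and *Ets1*, was followed across 4 sorted populations of type 1 lymphocytes of the mouse liver. The genes were chosen by symbol, as named factors of this developmental route, and they are 9 of the 54309 genes counted in these libraries. None of them encodes a protein used for sorting. The study grew liver metastases in female mice by injecting MC38 cells, a colon adenocarcinoma line of C57BL/6 background, into the spleen, and sequenced RNA of lymphocytes from the liver metastases (LM) and from metastasis-free liver (MFL). The populations were all lineage-negative, CD45+ and NKp46+. MFL NK cells and LM CD49a- NK cells were CD49a- CD49b+, MFL ILC1 were CD49a+ CD49b-, and LM CD49a+ NK cells were CD49a+ CD49b+. Each population had 3 libraries, each from a pool of 6 to 8 samples. The titles of the LM CD49a+ libraries call them ILC1, and they were grouped by their population label. LM tissue was digested with enzymes while MFL tissue was dissociated mechanically, so that site and dissociation cannot be told apart.

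NK cells and ILC1 descend from innate lymphoid progenitors in which T and B cell fates have been shut off. Id2 makes this possible by binding E proteins, the factors that drive T and B cell programs, while Nfil3, Tox and Ets1 act early on the path to NK cells and ILC. GATA3 and RORα are best known from ILC2, LEF1 and its relative TCF-1 pass on β-catenin signals in immature lymphocytes, and BACH2 is a repressor that holds lymphocytes back from effector differentiation.

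Expression is given as CPM, the counts of a gene scaled to a common library size by TMM, and differences as log2 fold changes. In each gene the libraries are listed in the order of their replicate numbers. Total counts lay between 8795721 and 14386834 per library. The coefficient of variation between replicates, over all genes, was 0.517 and 0.657 for the MFL populations (NK cells and ILC1) and 1.25 and 1.09 for those of LM (CD49a- and CD49a+). The spread was thus wider in LM than in MFL. The P values measure the spread between these pooled libraries. The edgeR fit of the 12 libraries took 1 spread per gene, so that its standard errors do not follow the wider spread in LM. For *Id2*, as an example, the standard error was 0.259 both between the MFL populations and between the LM populations. In bulk RNA, fewer expressing cells and less RNA per cell cannot be told apart. The identity markers of NK cells and ILC1 (10 genes, among them *Ncr1* and *Tbx21*) summed to between 5050 and 6263 CPM in all 12 libraries. *Il2rb* alone gave 1961 to 3115 CPM of the sum. Other markers in it differed between ILC1 and NK cells, such as *Eomes* (lower in ILC1) and *Zfp683* (higher).

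Of the 9 factors, 8 passed the low-count filter and were tested, and *Tox2* did not. Across the 4 populations, 2 of the 8 tested factors, *Tox* and *Lef1*, differed at an adjusted P under 0.1 by the quasi-likelihood test of edgeR, Benjamini-Hochberg adjusted, against 4.77% of the 13594 genes tested. Between MFL ILC1 and MFL NK cells, 1 factor rose (*Tox*) and 1 fell (*Lef1*), and 3.06% of all genes were called. LM CD49a+ NK cells differed from MFL ILC1 in the same 2 factors, with 3.58% of all genes called, and LM CD49a- NK cells differed from MFL ILC1 in *Lef1* and *Bach2*, with 4.42% of all genes called. Among the NK populations no factor was called. This held between the CD49a+ and CD49a- NK cells of LM, where 0.14% of all genes were called and 1 factor had an unadjusted P under 0.05. It held between LM CD49a+ and MFL NK cells, with 0.647% of genes called and 2 factors under 0.05, and between LM CD49a- and MFL NK cells, with 0.0736% of genes called and 0 factors under 0.05. DESeq2 called 1 factor in each of the first 2 of these comparisons, *Tox* and *Rora* respectively, and 0 in the last. Over all genes it called 927, 592 and 308. The comparisons share populations and are not independent of each other.

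**Figure D1:**
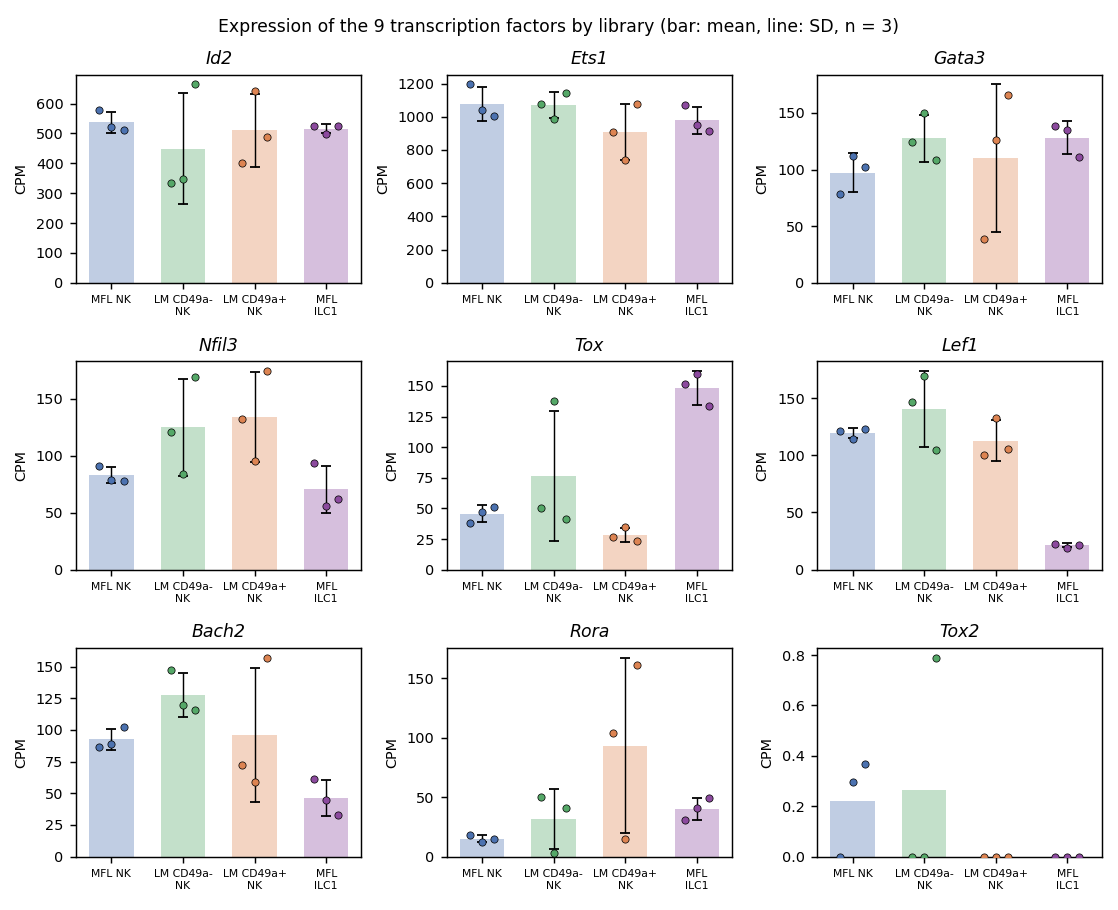
Expression of the 9 factors in CPM (vertical axes, each from 0) in the 4 populations. Points are libraries, bars are means and lines are the SD of 3 libraries (no SD is drawn for *Tox2*, which had 0 counts in 9 of 12 libraries). By their means, *Tox* was highest and *Lef1* lowest in MFL ILC1, while the libraries of *Id2* and *Ets1* overlapped between all 4 populations.

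*Tox*, *Lef1* and *Bach2* are the factors that were called between any 2 populations, and the 250 bases before the start of the canonical transcript of each are shown as sequence next to that start. For *Tox* this start, at 6990853, lies inside the span of the gene, whose outermost annotated start is at 6991644, so that the window is not upstream of all its transcripts. They were read from GRCm39 and are written 5′ to 3′ on the strand of the gene. Capitals mark matches, on either strand, to 10 motifs. The TCF/LEF motif was searched as CTTTGAA or else as CTTTGAT, and the E-box as CAGCTG or else as CAGGTG. The GATA motif was searched as AGATAA, the ROR motif as AGGTCA, the NFIL3 motif as TTANGTAA and the ETS motif as CCGGAAG. The BACH/MAF motif was searched as TGACTCA or else as TGAGTCA, the CRE as TGACGT, the GC box as GGGCGG and the CCAAT box as its 5 letters.
Tox, chr4:6990854-6991103, minus strand: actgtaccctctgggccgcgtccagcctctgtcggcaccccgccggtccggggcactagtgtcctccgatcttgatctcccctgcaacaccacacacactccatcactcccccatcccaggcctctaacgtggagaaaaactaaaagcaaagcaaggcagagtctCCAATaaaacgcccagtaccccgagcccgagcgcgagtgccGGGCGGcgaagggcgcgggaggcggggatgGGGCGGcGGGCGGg
Lef1, chr3:130903669-130903918, plus strand: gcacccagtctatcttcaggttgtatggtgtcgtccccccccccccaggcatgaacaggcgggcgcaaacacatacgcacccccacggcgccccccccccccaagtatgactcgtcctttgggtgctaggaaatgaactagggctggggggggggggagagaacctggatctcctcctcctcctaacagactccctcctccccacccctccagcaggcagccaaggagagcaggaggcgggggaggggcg
Bach2, chr4:32238464-32238713, plus strand: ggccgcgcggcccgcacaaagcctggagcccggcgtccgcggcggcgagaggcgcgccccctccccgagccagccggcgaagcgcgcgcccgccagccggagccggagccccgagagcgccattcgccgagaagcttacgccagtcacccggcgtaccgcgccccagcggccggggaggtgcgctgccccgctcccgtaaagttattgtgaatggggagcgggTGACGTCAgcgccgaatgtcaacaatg
The *Tox* window held a CCAAT box and 3 GC boxes, motifs found before 35.7% and 44.7% of the starts of 13531 tested genes. The *Bach2* window held a palindromic CRE, which counts as a match on each strand. The searched letters TGACGT, on either strand, were found before 8.14% of starts, and the full palindrome was not counted. The *Lef1* window held none of the 10 motifs. No window held a match of the TCF/LEF, E-box, GATA, ROR, NFIL3, ETS or BACH/MAF letters, which occurred before 6.47%, 24.8%, 8.2%, 11.5%, 1.73%, 9.86% and 3.12% of starts. The GC content was 65.6% for *Tox*, 65.6% for *Lef1* and 74% for *Bach2*, and its median over all starts was 55.2%.

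*Tox* encodes an HMG-box DNA-binding protein needed for the development of NK cells and other innate lymphocytes (ENSMUSG00000041272.12, chromosome 4, 6686353 to 6991644, GRCm39). Its expression was 38.1, 47.4 and 51.5 CPM for MFL NK cells, 50.7, 137 and 41.1 CPM for LM CD49a- NK cells, 26.8, 34.9 and 23.2 CPM for LM CD49a+ NK cells and 151, 160.1 and 133 CPM for MFL ILC1. All MFL ILC1 libraries lay above all MFL NK and LM CD49a+ libraries, separations seen in either direction for 25.3% and 23.2% of all genes. LM CD49a- replicate 2 alone among the NK libraries reached the range of ILC1. MFL ILC1 had more *Tox* than MFL NK cells, by 1.70 on the log2 scale (standard error 0.39, 3.25-fold, adjusted P = 0.0238, edgeR's quasi-likelihood test). This call was lost without MFL NK replicate 1, where the difference was 1.58 and the adjusted P 0.154. LM CD49a+ NK cells had less *Tox* than MFL ILC1, the log2 fold change being −2.39 (standard error 0.40, adjusted P = 0.00246, edgeR). For LM CD49a- NK cells against MFL ILC1 it was −0.96, which did not pass (adjusted P = 0.238, edgeR).

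Within LM, *Tox* took the other direction. All 3 LM CD49a+ libraries lay below all 3 LM CD49a- libraries, a separation seen in either direction for 9.82% of all genes. The log2 fold change was −1.43 (95% interval −2.26 to −0.60) with an adjusted P of 0.28 by edgeR, which did not pass the threshold. DESeq2 gave −1.45 with an adjusted P of 0.0225 and limma-voom −0.88 with an adjusted P of 0.893, and over all alternatives the adjusted P ranged from 0.0225 to 0.9998. The highest came from the edgeR fit of the 2 LM populations alone, where the log2 fold change was −1.41. The unadjusted P of that fit was 0.0251, against 0.00196 in the fit of all 12 libraries (edgeR's quasi-likelihood test). The size of this difference rested partly on LM CD49a- replicate 2, without which it was −0.70, with an adjusted P of 0.358 by edgeR. Without LM CD49a- replicate 3 it was −1.72, with an adjusted P of 0.0497 by edgeR.

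*Lef1* encodes an HMG-box factor that acts with TCF-1 in immature lymphocytes (ENSMUSG00000027985.15, chromosome 3, 130903919 to 131018005). Its expression was 122, 114 and 123 CPM for MFL NK cells, 147, 169.7 and 105 CPM for LM CD49a- NK cells, 100.02, 133 and 105 CPM for LM CD49a+ NK cells and 22.5, 19.2 and 21.8 CPM for MFL ILC1. The 9 NK libraries overlapped among themselves, and the 3 MFL ILC1 libraries lay far below all of them. In either direction, 25.3%, 23.2% and 22.6% of all genes separated MFL ILC1 from MFL NK, LM CD49a+ NK and LM CD49a- NK cells. MFL ILC1 had less *Lef1* than MFL NK cells, with a log2 fold change of −2.50 (standard error 0.27, 5.64-fold lower, adjusted P = 1.95e-05, edgeR). LM CD49a+ NK cells exceeded MFL ILC1 by 2.41 (5.32-fold, adjusted P = 5.23e-05, edgeR) and LM CD49a- NK cells exceeded them by 2.73 (6.63-fold, adjusted P = 8.73e-06, edgeR). Between the LM populations the log2 fold change of *Lef1* was −0.32 (95% interval −0.85 to 0.22), and between LM CD49a+ and MFL NK cells it was −0.08 (95% interval −0.62 to 0.45).

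Whether the step from CD49a- to CD49a+ cells had the same size at both sites was asked by the interaction of CD49a and site. It sets the step within LM (CD49a+ minus CD49a- NK cells) against the step within MFL (ILC1 minus NK cells), which are cells of different kinds as well as of different sites. The same 2 factors passed, 1 in each direction, against 1.03% of all genes. For *Tox* the difference within LM was lower than that within MFL by −3.13 on the log2 scale (standard error 0.56, 95% interval −4.30 to −1.96, adjusted P = 0.0125, edgeR). For *Lef1* it was higher by 2.18 (standard error 0.36, 95% interval 1.41 to 2.95, adjusted P = 0.00701, edgeR). Without LM CD49a- replicate 2 the value for *Tox* was −2.39, with an adjusted P of 0.00936 by edgeR. Both factors kept their call without each of the 12 libraries in turn. The other 6 tested factors had interactions from −0.61 for *Gata3* to 0.59 for *Bach2*, and their intervals held 0.

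**Figure D2:**
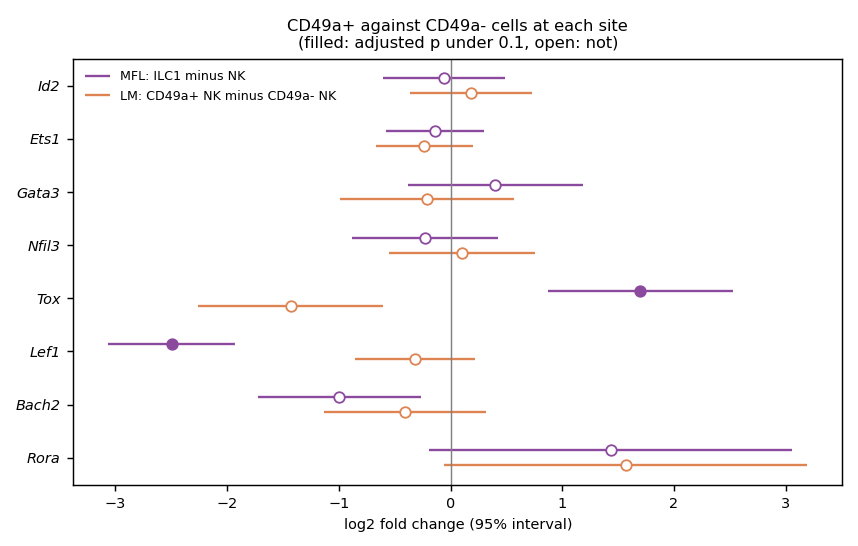
Log2 fold changes of the 8 tested factors (horizontal axis) between CD49a+ and CD49a- cells, with 95% intervals, in MFL (ILC1 minus NK cells) and in LM (CD49a+ minus CD49a- NK cells). Filled points passed an adjusted P of 0.1 by edgeR. The intervals of *Tox* lie on opposite sides of 0, and that of *Lef1* is well below 0 in MFL and spans 0 in LM.

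*Tox* and *Lef1*, which had been called in these same libraries, were plotted against each other. MFL ILC1 lay apart from every NK library by *Lef1* alone, and not by *Tox*. *Lef1* was at least 100.02 CPM in each of the 9 NK libraries and at most 22.5 CPM in ILC1. *Tox* was at most 51.5 CPM in 8 of the NK libraries. The exception, LM CD49a- replicate 2, joined a *Tox* level of ILC1 (137 CPM) to the highest *Lef1* level of all libraries (169.7 CPM).

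**Figure D3:**
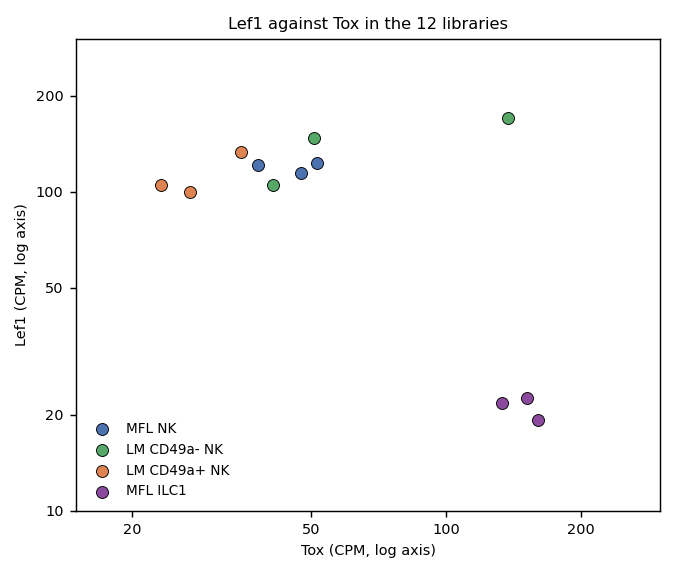
Expression of *Lef1* against *Tox* in the 12 libraries, in CPM on log axes, with 1 point per library colored by population. MFL ILC1 lie at 133 to 160.1 CPM of *Tox* and 19.2 to 22.5 CPM of *Lef1*, and one LM CD49a- NK library lies at 137 CPM of *Tox* with 169.7 CPM of *Lef1*.

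*Tox2*, a relative of *Tox* linked to NK cell maturation (ENSMUSG00000074607.12, chromosome 2, 163045021 to 163166191), was barely counted. It had 4 and 5 counts in MFL NK replicates 2 and 3, 10 counts in LM CD49a- replicate 3 and 0 in the other 9 libraries. The highest level was 0.788 CPM. A count of 0 allows up to 3 counts, or 0.22 to 0.334 CPM in these libraries, so that a low level of *Tox2* in CD49a+ populations was not detectable at this depth.

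*Bach2* encodes a bZIP repressor of effector programs (ENSMUSG00000040270.17, chromosome 4, 32238714 to 32586108). Its expression was 86.6, 88.7 and 102 CPM for MFL NK cells, 147, 119.9 and 115 CPM for LM CD49a- NK cells, 72.4, 58.8 and 157 CPM for LM CD49a+ NK cells and 61.3, 44.7 and 33.1 CPM for MFL ILC1. The MFL ILC1 libraries lay below all libraries of the CD49a- populations and overlapped LM CD49a+ NK cells through LM CD49a+ replicate 2. In either direction, 25.3% of all genes separated MFL ILC1 from MFL NK cells, and 22.6% separated MFL ILC1 from LM CD49a- NK cells. *Bach2* was higher in LM CD49a- NK cells than in MFL ILC1 by 1.46 on the log2 scale (standard error 0.35, 2.75-fold, adjusted P = 0.0259, edgeR). This call was lost without MFL ILC1 replicate 2 (adjusted P = 0.109, edgeR) or replicate 3 (adjusted P = 0.164, edgeR). The comparison of MFL ILC1 with MFL NK cells gave −0.996 (95% interval −1.73 to −0.27) with an adjusted P of 0.224 by edgeR. The fit of these 2 populations alone gave −1.01, with an adjusted P of 0.0307 by edgeR, within a range of 0.00014 to 0.796 over the alternatives. LM CD49a+ NK cells were 1.05 above MFL ILC1 (adjusted P = 0.158, edgeR), and this value was 0.50 without LM CD49a+ replicate 3.

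*Nfil3* encodes a bZIP factor required for early NK cell and ILC progenitors (ENSMUSG00000056749.8, chromosome 13, 53121245 to 53137010). Its expression was 91.1, 79.2 and 78.3 CPM for MFL NK cells, 121, 84.4 and 169 CPM for LM CD49a- NK cells, 132, 95.3 and 174 CPM for LM CD49a+ NK cells and 93.9, 55.6 and 62.3 CPM for MFL ILC1. All LM CD49a+ libraries lay above all MFL libraries, by a small margin over MFL ILC1 replicate 1, whereas LM CD49a- NK cells overlapped both MFL populations. The log2 fold change of LM CD49a+ NK cells was 0.69 against MFL NK cells (adjusted P = 0.485, edgeR) and 0.92 against MFL ILC1 (adjusted P = 0.171, edgeR). The second passed under limma-voom with sample quality weights (1.03, adjusted P = 0.0276) and DESeq2 (0.93, adjusted P = 0.0784), and its adjusted P reached 0.463 without MFL ILC1 replicate 2. Groups without overlap were found in 20.1% of all genes between LM CD49a+ and MFL NK cells and in 23.2% when LM CD49a+ NK cells were set against MFL ILC1.

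*Rora* encodes the nuclear receptor RORα, a factor of ILC2 (ENSMUSG00000032238.18, chromosome 9, 68561068 to 69295528). Its expression was 17.9, 11.9 and 14.9 CPM for MFL NK cells, 50.5, 2.99 and 40.8 CPM for LM CD49a- NK cells, 104, 14.7 and 161 CPM for LM CD49a+ NK cells and 30.6, 40.6 and 49.5 CPM for MFL ILC1. Replicate 2 was the lowest library in both LM populations, while the MFL ILC1 libraries all lay above the MFL NK libraries. The log2 fold change between LM CD49a+ and MFL NK cells was 2.65 (95% interval 0.96 to 4.34) with an adjusted P of 0.259 by edgeR. It passed without LM CD49a+ replicate 2, at 3.15 with an adjusted P of 0.0646 by edgeR, and without LM CD49a- replicate 2, at 2.64 with an adjusted P of 0.047 by edgeR. Without LM CD49a+ replicate 3 it was 1.99 (adjusted P = 0.618, edgeR), and limma-voom gave 1.83 (adjusted P = 0.188). Over all alternatives the adjusted P for this comparison ranged from 7.26e-05 to 0.694. Between MFL ILC1 and MFL NK cells the log2 fold change was 1.43 (adjusted P = 0.766, edgeR), and the fit of these 2 populations alone gave 1.42 with an adjusted P of 0.0227 by edgeR, within a range of 0.00865 to 1 over the alternatives. Genes whose libraries did not overlap between MFL ILC1 and MFL NK cells made up 25.3% of all genes, and 4 of the 8 factors were among them (*Tox* and *Rora* higher, *Lef1* and *Bach2* lower).

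*Gata3* encodes a zinc finger factor required by ILC2 and by IL-7 receptor positive ILC (ENSMUSG00000015619.11, chromosome 2, 9861889 to 9894845). Its expression was 78.1, 112 and 102 CPM for MFL NK cells, 125, 149.8 and 108 CPM for LM CD49a- NK cells, 38.7, 126 and 166 CPM for LM CD49a+ NK cells and 138, 135 and 111 CPM for MFL ILC1. The populations overlapped in all 6 pairs, and LM CD49a+ replicate 1 was the lowest library of all. The 6 log2 differences lay between −0.22 and 0.40, with 95% intervals reaching from −0.999 to 1.18.

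*Id2* encodes a helix-loop-helix protein without a DNA-binding region that keeps E proteins from DNA (ENSMUSG00000020644.10, chromosome 12, 25143798 to 25147282). Its expression was 577, 523 and 511 CPM for MFL NK cells, 336, 349 and 664 CPM for LM CD49a- NK cells, 401, 643 and 489 CPM for LM CD49a+ NK cells and 524, 498 and 526 CPM for MFL ILC1. The MFL populations lay within 498 to 577 CPM, and the LM libraries reached both lower and higher. The 6 log2 differences lay between −0.26 and 0.18, and their 95% intervals did not reach beyond −0.80 or 0.73.

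*Ets1* encodes the founding member of the ETS family (ENSMUSG00000032035.17, chromosome 9, 32547517 to 32669116). Its expression was 1194, 1039 and 1002 CPM for MFL NK cells, 1078, 987 and 1144 CPM for LM CD49a- NK cells, 909.7, 739.6 and 1078 CPM for LM CD49a+ NK cells and 1069, 949.9 and 916 CPM for MFL ILC1. No pair of populations was without overlap. The 6 log2 differences lay between −0.25 and 0.13, with 95% intervals from −0.68 to 0.56, the narrowest of the 8 factors.

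Per kilobase of annotated exon, *Id2* and *Ets1* had the highest levels of the 9 factors in each population, from 129 to 154 CPM per kilobase for *Id2* and from 107 to 127 for *Ets1*. *Gata3* was at 21.4 to 28.2 CPM per kilobase and *Nfil3* at 14.3 to 27. *Lef1* was at 12.1 to 15 CPM per kilobase in the NK populations and at 2.27 in MFL ILC1. *Tox* was at 3.65 in LM CD49a+ NK cells, 5.89 in MFL NK cells, 9.86 in LM CD49a- NK cells and 19.1 in MFL ILC1. By these means, *Tox* exceeded *Lef1* in MFL ILC1 and lay below it in the 3 NK populations. *Rora* ranged from 1.03 CPM per kilobase (MFL NK cells) to 6.45 (LM CD49a+ NK cells).

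**Figure D4:**
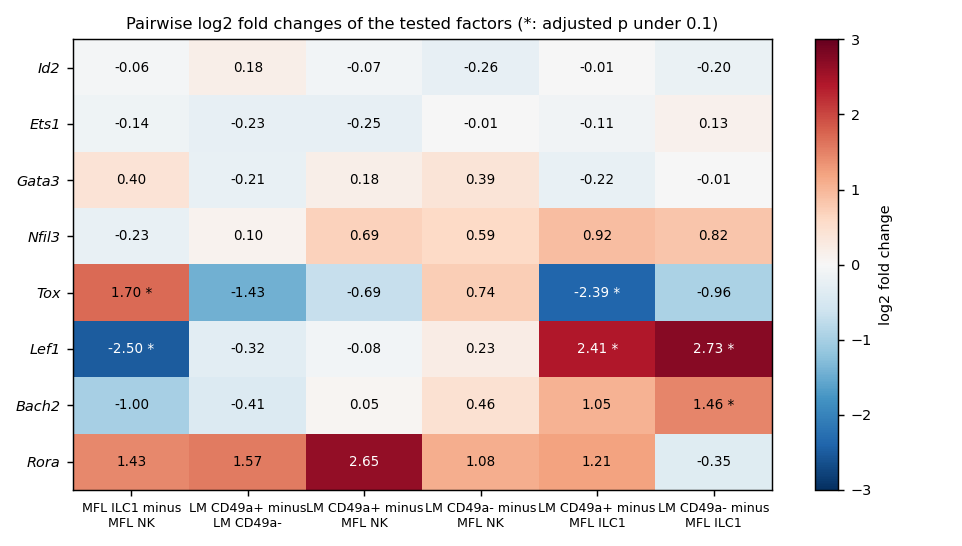
Log2 fold changes of the 8 tested factors (rows) in the 6 pairwise comparisons (columns), colored from blue (lower) to red (higher), with the value in each cell and a star where the adjusted P was under 0.1 by edgeR. The 6 starred cells all involve MFL ILC1.

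The genes that act with these factors were read from lists of E proteins and Id proteins, TCF/LEF and β-catenin, TOX, GATA and ROR, PAR bZIP and clock, BACH and small MAF, ETS, NK and ILC1 lineage factors, and surface genes of immature NK cells. Together the lists held 100 genes beside the 9 factors, of which 88 were tested. Between MFL ILC1 and MFL NK cells, 9 of them rose and 10 fell, which is 21.6% called against 3.06% over all genes, and their median log2 fold change was −0.04, against 0.01 over all genes. Between the LM populations 1 fell and 0 rose (1.14%, against 0.14% over all genes). LM CD49a+ NK cells differed from MFL ILC1 in 17 of the 88, 12 of them higher (19.3%, against 3.58%), and from MFL NK cells in 7, 6 of them higher (7.95%, against 0.647%). The lists were chosen with earlier results of these libraries known.

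Beside *Id2*, 1 of the 4 tested genes of E proteins and Id proteins rose between MFL NK cells and MFL ILC1. *Tcf12* (HEB) was at 136, 146 and 154 CPM in MFL NK cells and 232, 277 and 273 CPM in MFL ILC1, and it rose by 0.84 on the log2 scale (adjusted P = 0.0738, edgeR). *Tcf3* (E2A) was at 122, 143 and 145 CPM in MFL NK cells and 63.2, 95.2 and 91.3 CPM in MFL ILC1, with a log2 fold change of −0.72 that did not pass (adjusted P = 0.329, edgeR). *Id3*, the close relative of *Id2*, was at 17 CPM in LM CD49a+ replicate 1 and at 4.77 CPM or less elsewhere. No gene of this list was called between the LM populations.

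Beside *Lef1*, *Tcf7*, which encodes TCF-1, followed another order. It was at 146, 203 and 179 CPM for MFL NK cells, 293, 349.7 and 199 CPM for LM CD49a- NK cells, 453, 397 and 386 CPM for LM CD49a+ NK cells and 229.5, 78.9 and 69.6 CPM for MFL ILC1. All LM CD49a+ libraries lay above all other libraries, and ILC1 replicate 1 lay among the NK cells. In either direction, 9.82%, 20.1% and 23.2% of all genes separated LM CD49a+ NK cells from LM CD49a- NK cells, MFL NK cells and MFL ILC1. *Tcf7* was higher in LM CD49a+ NK cells than in MFL ILC1 by 1.71 on the log2 scale (adjusted P = 0.0152, edgeR). It was 1.23 above MFL NK cells (adjusted P = 0.238, edgeR) and 0.55 above LM CD49a- NK cells (adjusted P = 0.576, edgeR), differences that did not pass. Between MFL ILC1 and MFL NK cells its log2 fold change was −0.48 (adjusted P = 1, edgeR), beside −2.50 for *Lef1*. *Myb*, a factor of lymphoid progenitors in the same list, was at 48.8, 97.9 and 106 CPM in MFL NK cells and at 0, 1.32 and 0 CPM in MFL ILC1 (log2 fold change −7.43, adjusted P = 2.77e-05, edgeR). Of the 8 tested genes of the TCF/LEF list, *Myb* was the 1 called in this comparison.

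Beside *Bach2*, *Prdm1*, a gene that BACH2 is known to repress, fell between MFL NK cells and MFL ILC1, a comparison in which *Bach2* did not pass. It was at 142, 126 and 153 CPM in MFL NK cells and 32.6, 38.1 and 33.8 CPM in MFL ILC1, with a log2 fold change of −2.01 (adjusted P = 0.00559, edgeR). Beside *Ets1*, 1 of 11 tested ETS genes fell between these populations, *Elf4*, with −0.87 (adjusted P = 0.0755, edgeR). None of the 4 tested GATA and ROR partners, and not *Tox4*, the 1 tested TOX relative, was called there.

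Of the 26 lineage factors, 3 rose and 5 fell between MFL ILC1 and MFL NK cells. *Zfp683* (Hobit) was at 217, 236 and 204 CPM in MFL ILC1 and at 0.808 CPM or less in MFL NK cells, and *Eomes* was at 40.2, 13.2 and 7.58 CPM in MFL ILC1 and at 563 to 721 CPM in MFL NK cells (a log2 difference of −5.04, adjusted P = 6.63e-06, edgeR). *Zeb2*, a factor of NK cell maturation, was the 1 gene of these lists called within LM. It was at 415, 433 and 458 CPM in LM CD49a- NK cells and 120, 139 and 137 CPM in LM CD49a+ NK cells, with a log2 fold change of −1.72 (adjusted P = 0.0402, edgeR). Of the 12 surface genes, 5 rose and 1 fell in MFL ILC1 against MFL NK cells. *Il7r*, the IL-7 receptor, was at 5.96 to 6.19 CPM in MFL NK cells and at 73.6 to 182 CPM in MFL ILC1 (log2 fold change 4.27, adjusted P = 0.000241, edgeR).

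**Figure D5:**
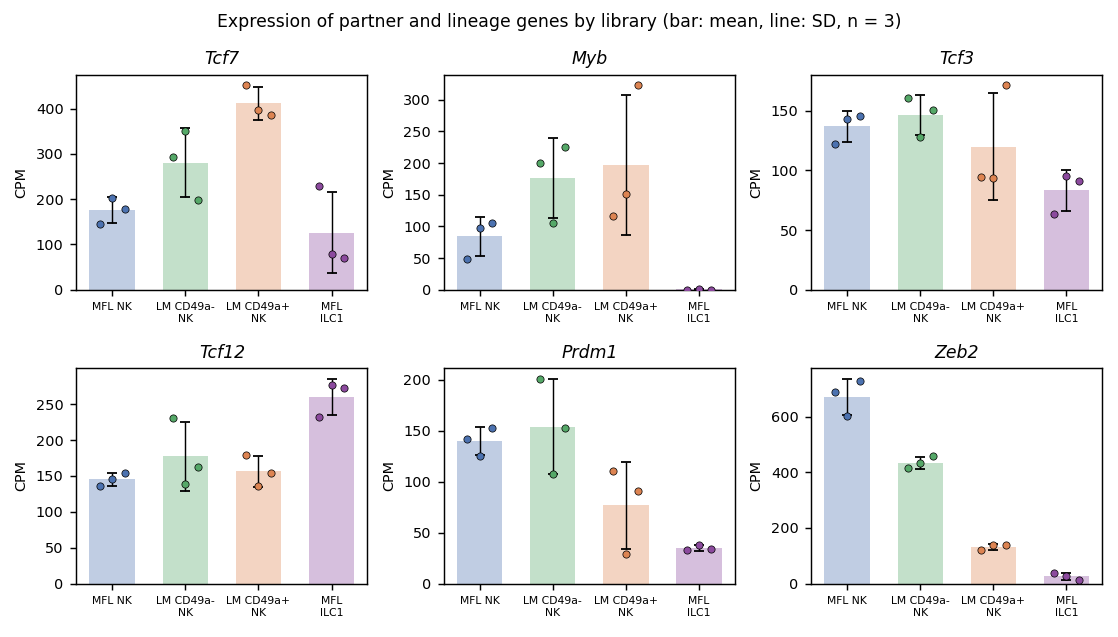
Expression in CPM (vertical axes, each from 0) of *Tcf7*, *Myb*, *Tcf3*, *Tcf12*, *Prdm1* and *Zeb2* in the 4 populations. Points are libraries, bars are means and lines are the SD of 3 libraries. *Tcf7* was highest in LM CD49a+ NK cells (386 to 453 CPM), and *Zeb2* was lowest in MFL ILC1 with LM CD49a+ NK cells next.

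The genes most like *Lef1* over the 12 libraries, among 9775 genes with a mean of at least 5 CPM, were *Il18r1* and *Wdr95*, with a Pearson r of log2 CPM of 0.987 and 0.982. Those most like *Tox* were *Ccdc136* (r = 0.948) and *Fam120b* (r = 0.935). These are descriptions over libraries that share their populations. In *Lef1*, MFL ILC1 stood apart from every NK library, and in *Tox* from all but LM CD49a- replicate 2.

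*Tox*, *Lef1* and *Bach2* are expressed by T cells too, and transcripts of some T cell genes were higher in the MFL ILC1 libraries. The list of 13 T cell genes summed to 143 to 241 CPM in MFL NK cells, 160.2 to 298 CPM in LM CD49a- NK cells, 319 to 500.02 CPM in LM CD49a+ NK cells and 717 to 1076 CPM in MFL ILC1, and 2 of its 8 tested genes rose between MFL ILC1 and MFL NK cells. *Cd3g* made up 224, 522 and 668 CPM of the sum in MFL ILC1 and was at 4.41 to 9.43 CPM in MFL NK cells. *Trbc1* was at 184 to 254 CPM in MFL ILC1 and 66.7 to 130.1 CPM in MFL NK cells, and *Trbc2* at 87.1 to 118 CPM and 17.3 to 28.2 CPM. *Cd4* and *Cd8a* were low but higher in MFL ILC1, at 1.99 to 5.09 CPM and 3.29 to 6.28 CPM against at most 0.22 and 0.147 CPM in MFL NK cells. *Cd3e* was at 0.366 CPM or less in MFL ILC1 and at 1.4 CPM or less in MFL NK cells, and *Themis* had 0 counts in all libraries. *Cd3d* overlapped, at 0 to 4.83 CPM in MFL ILC1 and 0 to 2.36 CPM in MFL NK cells. *Cd28* took another order, with 275, 60.4 and 111 CPM in LM CD49a+ NK cells. It was at 41 to 95.6 CPM in MFL ILC1 and 47.6 to 77.4 CPM in MFL NK cells. Markers of Kupffer cells and neutrophils summed to at most 5.53 and 2.29 CPM in any library, and those of ILC3 to at most 2.28 CPM. Those of ILC2 summed to at most 15.8 CPM and those of dendritic cells to at most 75.0 CPM. Macrophage markers reached 120.2 CPM in MFL ILC1 replicate 2, B cell markers ranged from 15.9 CPM in LM CD49a- NK cells to 187 CPM in MFL ILC1, hepatocyte markers from 12 to 215 CPM, endothelial markers from 79.2 to 284 CPM and tumor epithelium markers from 3.32 to 104 CPM. The last were at 67.2 CPM or more in MFL ILC1, where *Cdh1* was at 46 to 74.7 CPM and *Epcam* at 12.4 to 20.5 CPM against at most 0.147 and 2.53 CPM in MFL NK cells, while *Krt8* was at 0.074 CPM or less in all libraries. The share of mitochondrial, ribosomal RNA and small RNA genes was 3.68% to 15.2% and highest in MFL ILC1 replicate 1 and MFL NK replicate 1. The part of these signals in the levels of the 9 factors was not tested.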

How the data were processed

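RNA of the sorted lymphocytes was sequenced from stranded total RNA libraries. Reads were trimmed (trim-galore) and quantified by the authors with Salmon 1.5.0 per the submitters' processing notes (GENCODE M27, GRCm39). The authors deposited a table of estimated counts per gene, and these were rounded to whole numbers here. Groups were taken from the population labels. Gene names came from GENCODE vM39 and matched 53700 of 54309 identifiers. Genes were filtered with filterByExpr, scaled by TMM and tested in edgeR 4.0.16 (R 4.3.3) by 1 quasi-likelihood fit of the 12 libraries, with Benjamini-Hochberg adjustment over 13594 genes and a threshold of 0.1. The procedure was tested on simulated data with 1 spread per gene in all populations and changes in MFL ILC1 only. It was scored for MFL ILC1 against MFL NK cells, and does not bear on the LM comparisons or interactions. Alternatives used RLE scaling, DESeq2 1.42.0, voom of limma 3.58.1, no filter, the removal of mitochondrial, ribosomal and small RNA genes, a threshold of 0.05, a replicate block, the 2 groups alone, and 11 libraries at a time. All 9 factors were named, and from each list at most the 2 called genes with the largest change and a mean of at least 5 CPM, within MFL and within LM, with *Tcf3*, *Tcf12*, *Id3* and *Tcf7* whatever their values; *Tox4* and single marker genes were named after their values were seen. Some genes that this rule names are not reported here. The members and lists were chosen with earlier results of these data known. Figures were drawn with matplotlib 3.10.9. The 6 macrophage libraries were not analysed here. A floor of 3 counts covers counting error only.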

Additional observations from a re-analysis of the deposited data

Results flagged for a closer look

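The differences between CD49a+ and CD49a- cells were not alike at the 2 sites for *Tox* and *Lef1*, by a test of the difference itself. The interaction was −3.13 on the log2 scale for *Tox*, which rose from NK cells to ILC1 in MFL and had its lower values in the CD49a+ cells of LM. It was 2.18 for *Lef1*, which fell from NK cells to ILC1 in MFL and was within the spread between the LM populations. The sorting gates of the CD49a+ cells (CD49b- in MFL, CD49b+ in LM) and the dissociation differed along with the site, and cannot be told apart from it.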

How the results depend on the processing

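The interactions of *Tox* and *Lef1* passed under all alternatives run, which do not include the fit of 2 groups alone, and without 1 library they ranged from −3.40 to −2.39 and from 2.03 to 2.34. The number of factors called in the other comparisons moved, and so did the calls over all genes that each setting tested. Between MFL ILC1 and MFL NK cells it was 4 under limma-voom and 4 with only these groups fitted, and 1 to 3 when leaving out a library. Over all genes, 2645, 1228 and 268 to 562 were called there, against 416 in the fit reported. Between the LM populations it was 1 under DESeq2 and 1 without the filter (*Tox*), and 0 to 1 when leaving out a library. The calls over all genes were 927, 200 and 5 to 267, against 19 in the fit reported. Between LM CD49a+ and MFL NK cells it was 1 under DESeq2 and 1 without the filter (*Rora*), and 0 to 1 when leaving out a library. Here 592, 371 and 26 to 168 of all genes were called, against 88 in the fit reported. Against MFL ILC1, LM CD49a+ NK cells gave 4 under DESeq2 and 2 to 4 when leaving out a library, and LM CD49a- NK cells gave 4 under limma-voom and 1 to 4 when leaving out a library. Over all genes the first gave 1357 and 257 to 708, against 486 in the fit reported. The second gave 878 and 316 to 930, against 601. Over all 4 populations the number was 4 under DESeq2, 5 under limma-voom, 4 without the filter and 2 to 4 when leaving out a library. Of all genes, 1762, 3568, 1335 and 387 to 967 were called, against 649 in the fit reported. Of 56 fold changes and interactions, 14 changed sign under some setting, none larger than 0.36 in the fit reported. Limma-voom moved the median of all genes by up to −0.27. Libraries with the same replicate number correlated between −0.05 and 0.10 in their deviations from the group means, with 0 of 18 pairs above 0.1. The own number, 1 of 3 that could match, was the best match in 10 of 18. These values do not settle whether the libraries were paired. The pools came from 3 sortings. Whether a number marks a shared one is not given in the sources used here, and the samples were treated as unpaired. With a replicate block the interactions were −3.01 for *Tox* and 2.19 for *Lef1*, and no count of called factors moved. The wide spread in LM limits what 3 libraries can show there.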
